A study of Mus musculus with 6 samples.

Results

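The RNA of 10 genes of the NF-kB system was compared between CD8+ T cells given GSK and those given Veh. These were the 5 NF-kB factor genes Nfkb1, Nfkb2, Rel, Rela and Relb, the IkB family genes Nfkbia, Nfkbiz and Nfkbid, and the feedback genes Tnfaip3 and Tnip3. They were chosen by name, with earlier results of these data known. All 10 were present among the 16281 genes with counts and passed the filter on low counts. GSK2879552 (GSK) is an irreversible inhibitor of LSD1, a histone demethylase, and Veh is its vehicle control. CD8+ T cells were taken from the spleens of OT1 mice, which carry the transgenic T-cell receptor Tg(TcraTcrb)1100Mjb on the C57BL/6 strain, so the cells of both groups shared this receptor but were activated by antibodies and not by its peptide. The sample labels name spleen only, while the series design also names lymph nodes, and the age of these mice is not given in the sources used here. Cells of both groups were stimulated for 48 h with plate-bound anti-CD3 and soluble anti-CD28, each at 2 μg/ml, with 20 ng/ml IL-2, and were then expanded with IL-2 for 3 days. GSK at 0.5 μM or vehicle was present during both phases, with 3 samples per group. The study names 3 separate mice and gives 3 mice per group, without saying which Veh and GSK cultures shared a mouse.

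In resting cells, NF-kB dimers are held in the cytoplasm by IkB proteins such as IκBα, the product of Nfkbia. Signals from the T-cell receptor, CD28 and TNF receptors activate the IKK kinases, the IkB proteins are degraded, and the released dimers enter the nucleus and drive genes for cytokines, survival and their own inhibitors. Nfkbia and Tnfaip3 are known targets of this kind and close a negative feedback loop, while Nfkbiz and Nfkbid encode nuclear IkB proteins that change which genes the dimers activate.

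Promoter sequences of these genes were searched for the motif that NF-kB dimers recognize. The motif was not used to choose them. The set was chosen as NF-kB factors and feedback genes, with known targets such as Nfkbia and Tnfaip3, so matches are no independent result. In a RefSeq table of GRCm38 promoter windows (250 bases before to 50 bases after each start), 7 of the 10 genes had a window, namely Nfkb2, Rel, Rela, Nfkbia, Nfkbid, Tnfaip3 and Tnip3. The kB consensus motif, the 10-base recognition sequence of NF-kB dimers, was searched on both strands. It was found in at least 1 window of 6 of these 7 genes, all but Rela, compared with 6.11% of the 9417 tested genes that had a window. Counted by window, it was in 8 of the 12 windows of these genes and in 5.1% of the 12020 windows of tested genes. The longest list of matches was that of Nfkb2, with 4 distinct sites over its 3 windows. Such a match is a description of the sequence and does not show that a factor binds there. The stretches upstream of the starts are printed below from 5′ to 3′ on the gene's own strand, with the match in capitals, because they hold the matches whose surrounding bases overlap no annotated exon.
Tnip3, chr6:65590319-65590378, plus strand: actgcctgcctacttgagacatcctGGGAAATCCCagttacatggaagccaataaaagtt
Tnfaip3, chr10:19015411-19015447, minus strand: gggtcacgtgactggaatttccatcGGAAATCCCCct
Nfkbia, chr12:55492648-55492701, minus strand: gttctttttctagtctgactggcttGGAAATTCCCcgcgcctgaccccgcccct
Rel, chr11:23771026-23771086, minus strand: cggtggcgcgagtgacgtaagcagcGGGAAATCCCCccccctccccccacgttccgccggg
Nfkbid, chr7:30422156-30422214, plus strand: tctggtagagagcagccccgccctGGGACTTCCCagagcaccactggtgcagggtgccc
Nfkbid, chr7:30422200-30422259, plus strand: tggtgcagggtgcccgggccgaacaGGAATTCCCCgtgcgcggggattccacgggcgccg
Nfkb2, chr19:46305445-46305493, plus strand: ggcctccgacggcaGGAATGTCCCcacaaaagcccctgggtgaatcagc
The match of Tnip3 begins 54 bases before its start, that of Nfkbia 29 bases before, that of Rel 92 bases before and that of Tnfaip3 12 bases before. The Tnip3 match GGGAAATCCC and the Rel match GGGAAATCCCC meet the consensus on both strands. The 2 matches of Nfkbid lie 226 and 181 bases before the second of its 3 annotated starts. Tnfaip3 has another match, GGGACACCCC, 125 bases before its start. The printed Nfkb2 match lies 236 bases before the second of the 3 Nfkb2 starts. The first of these starts has GGGAATTCCCC 39 bases and GGGGCTTTCC 11 bases upstream, and the third has GGGACTTTCC 225 bases upstream.

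Total counts lay between 18288447 and 18918811 in the Veh samples and between 19149909 and 19846720 in the GSK samples, and 11698 genes were tested. The levels below are CPM, the usual scaling of counts by library total, here with TMM-adjusted totals of the tested genes. The median log2 fold change of all tested genes was -0.0039. Of 10 CD8 T-cell markers, 2 rose (20%, Cd2 and Lck) and 4 fell (40%) at an adjusted p under 0.05 (edgeR). Among all tested genes, 16.6% were higher and 15.5% lower by the same test. The markers Cd5 (log2 fold change -0.50) and Cd3g (-0.38) fell the furthest. Cd3e, Cd8a and Cd8b1 stood at 284, 516 and 406 CPM in Veh and at 242, 541 and 375 CPM in GSK, whereas Cd4 was at 1.19 and 0.967 CPM. The levels of these 10 markers, of which Ptprc had the highest, summed to 5627 to 5957 CPM in Veh and 5570 to 6010 CPM in GSK. Those of 7 B-cell markers summed to 6.31 to 8.21 and 7.93 to 9.67 CPM, those of 7 myeloid markers to 4.08 to 5.66 and 1.72 to 3.19 CPM, those of 4 NK-cell markers to 9.62 to 10.7 and 12.8 to 17.0 CPM, those of 3 CD4 markers to 43.1 to 52.9 and 39.2 to 44.8 CPM, and those of 4 erythroid markers to 0.158 to 0.272 and 0.101 to 0.313 CPM. The listed B-cell marker Ighm and the listed myeloid markers S100a8 and S100a9 are not among the genes with counts. No gene with counts was at 0 in all 6 samples, so markers without any reads could not appear. Ncr1, Adgre1 and Cd14 were among the markers with at most 3 counts in any sample. Of the 2 tested B-cell markers, Cd22 rose from 0.409 to 2.60 CPM. Cd79b, with means of 6.51 (Veh) and 4.90 CPM (GSK), did not pass (adjusted p = 0.070, edgeR). The myeloid and NK-cell sums did not overlap between the groups, and their part in the results below was not tested. Almost all of the NK-cell sum came from Klre1 (8.04 CPM in Veh, 11.4 in GSK) and Klrb1c (2.07 and 3.03). Ncr1 and Klra8 had at most 1 count in any sample. Most of the CD4 sum came from Zbtb7b (42.1 CPM in Veh, 37.6 in GSK). In these bulk samples, fewer cells of a type and less RNA per cell cannot be told apart.

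GSK treatment changed the RNA of NF-kB feedback genes in both directions and left 4 of the 10 genes without a detected difference. Tnip3, Nfkbiz, Nfkbid and Rel were higher and Tnfaip3 and Nfkb1 were lower at an adjusted p under 0.05 (quasi-likelihood F test of edgeR, adjusted by Benjamini-Hochberg over all tested genes). The largest changes were a 2.08-fold rise of Tnip3, a 1.63-fold rise of Nfkbiz and a fall of Tnfaip3 by 40.3%. Among all tested genes, 32.1% passed this adjusted p, 16.6% as higher and 15.5% as lower. The 3 genes with the largest changes were also past a fold change of 1.5, as were 6.32% of all tested genes (2.22% higher and 4.09% lower). In 8 of the 10 genes, every GSK sample lay on one side of every Veh sample, 5 above and 3 below. This held for 46.7% of all tested genes (23.7% above and 23.0% below). Earlier results of these data were known when the 10 genes were chosen, so these counts are no independent evidence.

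**Figure D1:**
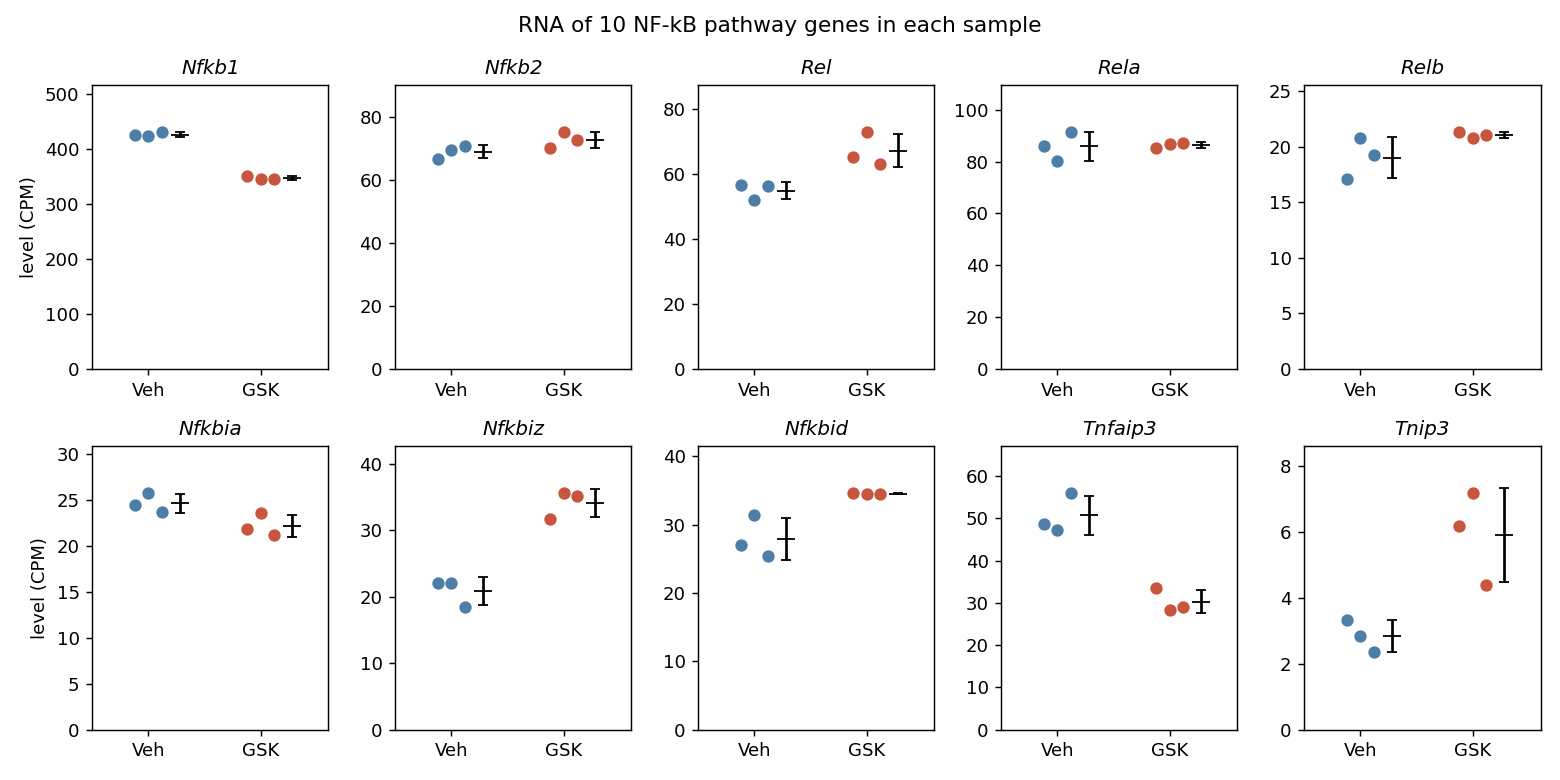
RNA level of each gene in CPM (vertical axes, starting at 0) in the 3 Veh and 3 GSK samples (points), with the mean and SD of each group beside them. Nfkbiz and Tnip3 sit higher in every GSK sample and Tnfaip3 and Nfkb1 lower, whereas the groups of Rela and Nfkb2 overlap.

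The feedback inhibitor Tnfaip3 encodes A20, a ubiquitin-editing enzyme that shuts off NF-kB signalling downstream of TNF and T-cell receptors. In GRCm38 it spans 19000910 to 19015410 of chromosome 10, and no other annotated gene overlaps it. Its level was 48.7, 47.3 and 56.0 CPM in the Veh samples and 33.4, 28.3 and 29.1 CPM in the GSK samples. All GSK samples were thus well below all Veh samples, with Veh replicate 3 the highest. The log2 fold change was -0.74 (standard error, SE, 0.083, 95% confidence interval -0.92 to -0.56, adjusted p = 5.0e-05 by edgeR). Leaving out any 1 sample kept it between -0.82 and -0.66.

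Tnip3 encodes ABIN-3, a protein that binds A20. It lies on chromosome 6 from 65590398 to 65634040 and was the lowest of the 10 genes. Its counts were 61, 53 and 45 in the Veh samples and 118, 142 and 84 in the GSK samples, or 3.32, 2.84 and 2.36 CPM against 6.20, 7.19 and 4.38 CPM. Every GSK sample was higher, and the spread within GSK was wide, since replicate 2 stood well above replicate 3. The log2 fold change was 1.06 (SE 0.22, 95% confidence interval 0.59 to 1.53, adjusted p = 0.0027 by edgeR), with 0.89 to 1.23 when any 1 sample was left out. A20 and its partner ABIN-3 therefore moved in opposite directions at the RNA level. Tnip3 had 5.68 ± 1.33 counts per 100 counts of Tnfaip3 (SD, n = 3) in Veh and 19.7 ± 5.27 (SD, n = 3) in GSK, a ratio that no scaling between samples can alter.

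Nfkbiz encodes IκBζ, a nuclear IkB protein that NF-kB induces and that in turn helps to activate a second wave of genes. It lies on chromosome 16 from 55811375 to 55838954. The level was 22.1, 22.0 and 18.5 CPM in Veh and 31.7, 35.6 and 35.1 CPM in GSK. The lowest GSK sample was above the highest Veh sample by a wide margin. The log2 fold change was 0.71 (SE 0.086, 95% confidence interval 0.52 to 0.89, adjusted p = 8.6e-05 by edgeR), and it stayed between 0.63 and 0.76 with any 1 sample left out.

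Nfkbid encodes IκBNS, the other nuclear IkB protein of the group, which is known for its role in cytokine expression of T cells. It lies on chromosome 7 from 30421731 to 30428749. Its level was 27.0, 31.4 and 25.4 CPM in Veh and 34.7, 34.5 and 34.5 CPM in GSK, so that the GSK samples were nearly equal and all above the Veh samples. It rose by less than 1.5-fold (log2 fold change 0.31, SE 0.080, adjusted p = 0.011 by edgeR). Without Veh replicate 3, which was the lowest sample, the adjusted p was 0.057 and the log2 fold change 0.24.

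Nfkbia, whose product IκBα keeps NF-kB dimers in the cytoplasm, was at 24.5, 25.7 and 23.6 CPM in Veh and at 21.8, 23.5 and 21.2 CPM in GSK. The groups did not overlap, but the highest GSK sample almost reached the lowest Veh sample. The log2 fold change was -0.15 with a 95% confidence interval from -0.32 to 0.016 (adjusted p = 0.15 by edgeR), so a fall of the size seen for Tnfaip3 lay outside the interval. Per 100 counts of Tnfaip3, there were 49.0 ± 6.19 counts of Nfkbia (SD, n = 3) in Veh and 73.8 ± 8.98 (SD, n = 3) in GSK. The ratio was higher in every GSK sample than in any Veh sample (two-sided exact permutation p = 0.1, the smallest possible). It was chosen after the values had been seen and rises with the fall of Tnfaip3 alone, so its p-value adds no independent result. The gene lies on chromosome 12 from 55489409 to 55492647.

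**Figure D2:**
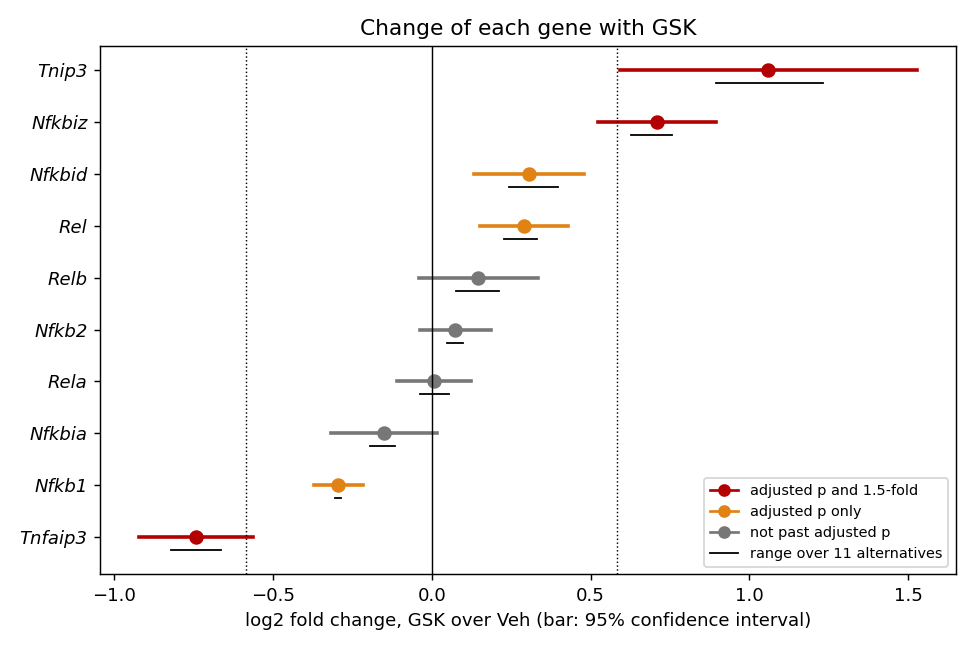
Log2 fold change of GSK over Veh for each gene (horizontal axis) with its 95% confidence interval as a coloured bar, and below it the range of estimates over 11 alternative analyses as a black line. Dotted lines mark a 1.5-fold change, which Tnip3 (1.06), Nfkbiz (0.71) and Tnfaip3 (-0.74) passed.

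Of the 5 factor genes, which share the Rel homology domain for DNA binding and pairing, Nfkb1 fell, Rel rose, and Rela, Relb and Nfkb2 did not pass the test. Nfkb1 encodes the precursor p105 and its product p50, a partner of Rel and RelA that lacks an activation domain of its own. It lies on chromosome 3 from 135584655 to 135691969. It was the most abundant of the 10 genes, with 425, 423 and 430 CPM in Veh and 352, 345 and 345 CPM in GSK. Its groups were tight and far apart, and the fall by 18.5% had a log2 fold change of -0.29 (SE 0.036, 95% confidence interval -0.37 to -0.22, adjusted p = 8.6e-05 by edgeR). The predicted genes Gm43430 and Gm46827 overlap its region, and the former shares no exon base with Nfkb1.

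Rel encodes c-Rel, the factor of this family most closely tied to T-cell activation and cytokine genes, and lies on chromosome 11 from 23736847 to 23770969. Its level was 56.5, 52.0 and 56.2 CPM in Veh and 65.4, 72.8 and 63.1 CPM in GSK, with all GSK samples above all Veh samples. The log2 fold change was 0.29 (SE 0.064, 95% confidence interval 0.15 to 0.43, adjusted p = 0.0045 by edgeR). Rel gave 13.3, 12.3 and 13.1 counts per 100 counts of Nfkb1 in the Veh samples and 18.6, 21.1 and 18.3 in the GSK samples. This ratio of 12.9 ± 0.521 against 19.3 ± 1.57 (SD, n = 3 each) differed by more than its spread, with p = 0.1 in a two-sided exact permutation test, the smallest value that 3 samples against 3 allow. It was chosen, like the other 5 ratios plotted with it, after the values had been seen.

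Rela encodes RelA (p65), the main activating partner of p50, and lies on chromosome 19 from 5637442 to 5648134. It was at 85.9, 80.3 and 91.3 CPM in Veh and at 85.1, 86.6 and 87.2 CPM in GSK, with the GSK samples inside the range of the Veh samples. Its log2 fold change of 0.0077 had a 95% confidence interval of -0.11 to 0.12 (adjusted p = 0.93 by edgeR). Since Nfkb1 fell, Rela gave 20.1 ± 1.11 counts per 100 counts of Nfkb1 (SD, n = 3) in Veh and 24.9 ± 0.581 (SD, n = 3) in GSK.

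Nfkb2 and Relb, the factor genes of the alternative NF-kB pathway, which lymphotoxin and other TNF-family receptors activate through the kinase NIK, did not pass the test. Nfkb2, the gene of p100 and p52, was at 66.8, 69.5 and 70.9 CPM in Veh and at 70.2, 75.3 and 72.8 CPM in GSK. Its groups overlapped, and the log2 fold change was 0.074 (95% confidence interval -0.037 to 0.19, adjusted p = 0.30 by edgeR). The gene lies on chromosome 19 from 46300994 to 46312400. Its exons share 299 bases with those of Psd, on the opposite strand, and 531 with those of a long noncoding RNA, but Psd had only 4 to 10 counts in any sample. Relb, whose protein pairs with p52, lies on chromosome 7 from 19606217 to 19629438 and was at 17.1, 20.8 and 19.2 CPM in Veh and 21.3, 20.8 and 21.1 CPM in GSK. Every GSK sample lay above every Veh sample, but only just (20.8 CPM in GSK replicate 2, 20.76 CPM in Veh replicate 2). The Veh samples varied more than the GSK samples, and the log2 fold change was 0.15 (95% confidence interval -0.041 to 0.33, adjusted p = 0.22 by edgeR). Relb gave 27.5 ± 2.18 counts per 100 counts of Nfkb2 (SD, n = 3) in Veh and 29.0 ± 1.36 (SD, n = 3) in GSK, with overlapping samples.

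**Figure D3:**
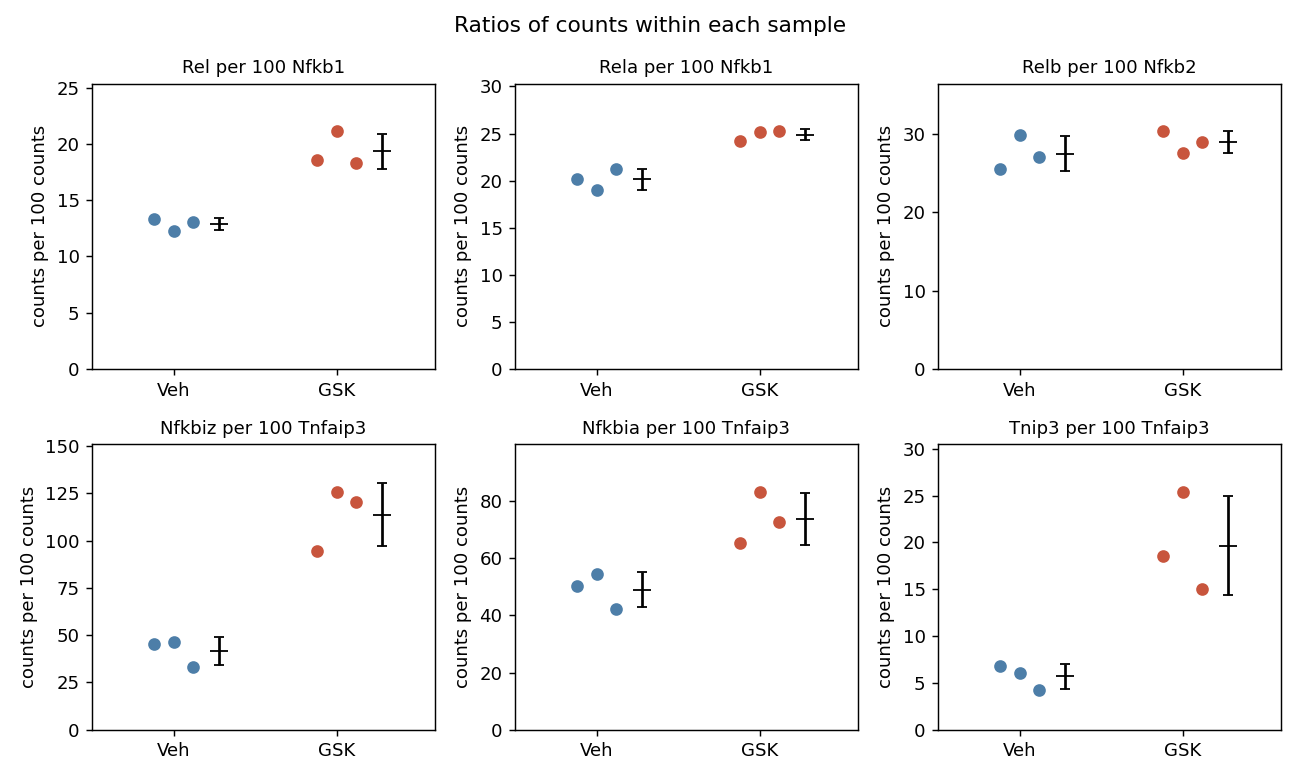
Counts of one gene per 100 counts of another within each sample (vertical axes, starting at 0) for the 3 Veh and 3 GSK samples (points), with the mean and SD of each group. Rel per Nfkb1 went from 12.9 to 19.3 and Nfkbiz per Tnfaip3 from 41.7 to 114, whereas Relb per Nfkb2 overlapped between the groups.

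Nfkbiz gave 45.4, 46.6 and 33.1 counts per 100 counts of Tnfaip3 in the Veh samples and 94.7, 126 and 121 in the GSK samples. The gene of the nuclear IkB protein thus had fewer counts than that of A20 in every Veh sample, and more in 2 of the 3 GSK samples.

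To rank the genes by level, their CPM were divided by transcript length, giving CPM per kb of the longest RefSeq-matched transcript. In Veh, the order was Nfkb1 (103), Rela (31.6), Nfkb2 (22.0), Nfkbia (15.6), Nfkbid (13.7), Tnfaip3 (11.5), Relb (8.61), Rel (7.35), Nfkbiz (5.07) and Tnip3 (0.754 CPM per kb). The samples of Nfkbia and Nfkbid overlapped, as did those of Nfkbid and Tnfaip3, and the other neighbours in this order did not. In GSK, Tnfaip3 was ninth at 6.85 CPM per kb, below Relb (9.53), Rel (8.99) and Nfkbiz (8.29), where the samples of Relb overlapped those of Rel and the samples of Rel those of Nfkbiz, but the samples of Nfkbiz and Tnfaip3 did not overlap. Per kb, Nfkb1 made up 59.1% to 60.2% of the summed level of the 5 factor genes in the Veh samples and 52.7% to 54.2% in the GSK samples, whereas Rel went from 4.08% to 4.41% up to 5.38% to 6.15%. The summed level of the 5 factors was 171 to 177 CPM per kb in Veh and 157 to 159 CPM per kb in GSK. These values depend on the gene model, since the union of all annotated exons of Nfkb1 is 12061 bases long and its RefSeq-matched transcript 4117 bases. With the exon union, Nfkb1 stood at 35.3 and Rela at 27.9 CPM per kb in Veh. The share of Nfkb1 and the summed level were then lower. The order also changed, with Nfkbia (15.3) above Nfkb2 (15.1) and Rel (7.35) above Tnfaip3 (7.01) and Relb (4.90 CPM per kb in Veh).

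**Figure D4:**
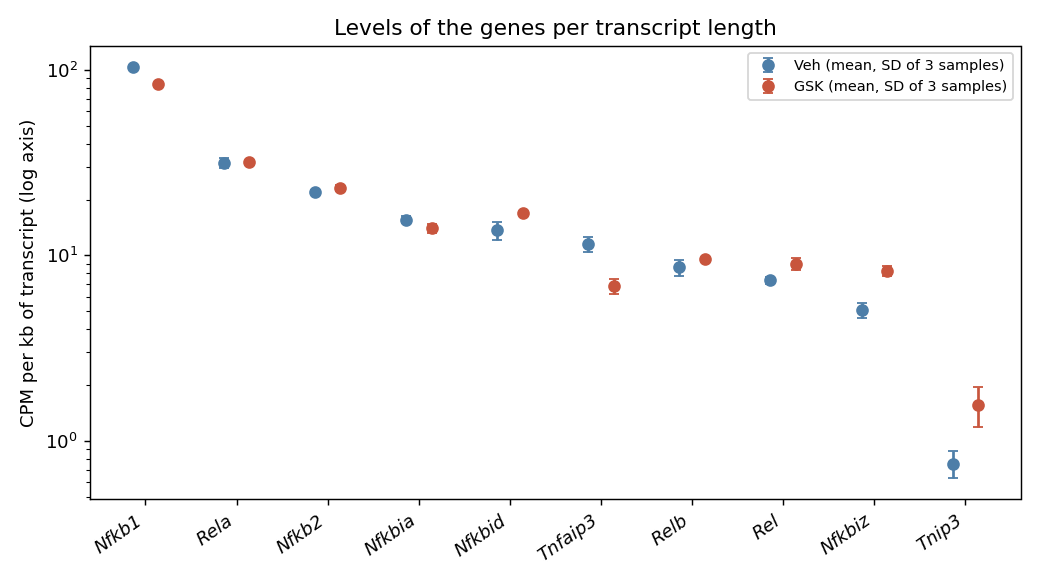
Mean level in CPM per kb of transcript (vertical log axis) with the SD over 3 samples, for each gene in Veh and GSK, ordered by the Veh level. Nfkb1 is highest in both groups and Tnip3 lowest, and Tnfaip3 drops from 11.5 to 6.85.

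Other genes of the pathway, grouped by role, were examined with the same test, by which 16.6% of all tested genes were higher and 15.5% lower. Of 5 other genes for IkB proteins and their partners, 1 rose (20%) and none fell. It was Bcl3, an atypical IkB protein that acts as a coactivator with p50 and p52 (log2 fold change 0.44, adjusted p = 0.0046), which stood at 15.8 ± 0.899 CPM without and 21.4 ± 2.37 CPM with GSK (SD, n = 3 each). Nkiras2 (-0.13) and Nfkbib (0.13), 2 other genes that restrain NF-kB, did not pass (adjusted p = 0.13 and 0.19, edgeR).

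Of 12 IKK and upstream kinase genes, 2 rose (16.7%) and 1 fell (8.33%), all by less than 1.5-fold, against 32.1% of all tested genes that passed. The catalytic IKK subunits moved apart, with a log2 fold change of 0.25 for Chuk (IKKα, adjusted p = 0.0066) and -0.23 for Ikbkb (IKKβ, adjusted p = 0.0082, edgeR). Map3k7, the gene of the IKK-activating kinase TAK1, had 0.16 (adjusted p = 0.014), or 0.054 as adjusted p without Veh replicate 2. Of 11 genes between the T-cell receptor and IKK, 2 rose (18.2%) and 3 fell (27.3%), against 16.6% and 15.5% of all tested genes. Malt1, the gene of a protease that cleaves A20, fell from 246 ± 6.92 to 186 ± 13.5 CPM (SD, n = 3 each, log2 fold change -0.40, adjusted p = 1.7e-04, edgeR), and the costimulatory receptor gene Cd28 fell by 0.31 on the log2 scale (adjusted p = 0.0020). Vav1, which relays both receptors, rose (0.22, adjusted p = 0.0019).

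Among 11 genes next to TNF receptors, 3 rose (27.3%) and 2 fell (18.2%), against the same shares of all tested genes, 16.6% and 15.5%. The TNF receptor gene Tnfrsf1b rose (log2 fold change 0.20, adjusted p = 0.0071), as did Traf3 (0.21, adjusted p = 0.012, and 0.059 without Veh replicate 3), which holds NIK low, whereas Birc2, the gene of the ubiquitin ligase cIAP1, fell (-0.29, adjusted p = 0.0094, edgeR). Of 9 genes for the linear ubiquitin ligase and for deubiquitinases, 1 rose and 1 fell (11.1% each), against 32.1% of all tested genes that passed. Otulin, which removes linear ubiquitin chains and so limits NF-kB signalling, rose from 76.3 ± 3.05 to 123 ± 7.63 CPM (SD, n = 3 each), a log2 fold change of 0.69 (SE 0.055, adjusted p = 3.6e-06, edgeR). It was the one gene outside the NF-kB target list that was past both thresholds in these lists. Otud7b had a log2 fold change of -0.16 (adjusted p = 0.048) and passed in only 2 of the 11 alternatives, and Rnf31, the catalytic subunit of the linear ubiquitin ligase, did not pass (-0.15, adjusted p = 0.090). Of 5 A20 partners, 1 fell (20%, against 15.5% of all tested genes), namely Tax1bp1 (-0.13, adjusted p = 0.047), which passed in 4 of the 11 alternatives, while Tnip2 (0.24, adjusted p = 0.071) and Rnf11 (0.12, adjusted p = 0.30, edgeR) did not pass.

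Of 29 tested genes in a list of 32 known NF-kB targets, 15 rose (51.7%) and 3 fell (10.3%), compared with 16.6% and 15.5% of all tested genes, and their median log2 fold change was 0.27. This list holds genes whose rise in these samples was already known when it was written, so its count is no independent evidence of direction. Past both thresholds were the cytokine and chemokine genes Tnf, Lta, Ifng, Ccl3, Ccl4 and Cxcl10, and Cd40lg, Egr2 and Il2ra. Il2ra, the gene of the high-affinity IL-2 receptor chain CD25, had the highest level of these and rose from 854 ± 26.7 to 1285 ± 55.5 CPM (SD, n = 3 each, log2 fold change 0.59, SE 0.038, adjusted p = 6.4e-07, edgeR). Tnf, which both activates NF-kB and is its target, had a log2 fold change of 1.17 (adjusted p = 6.4e-07), and the others ranged from 0.85 for Cxcl10 to 1.55 for Ccl4. The samples of Cxcl10 overlapped between the groups (3.18 CPM in GSK replicate 3, 3.33 CPM in Veh replicate 2). Some of these calls were lost when any of several samples, or in Ifng 1 sample, was left out. Cd40lg did not pass without Veh replicate 1, Veh replicate 3 or GSK replicate 1 (adjusted p up to 0.081), Cxcl10 without Veh replicate 1, Veh replicate 3, GSK replicate 1 or GSK replicate 2 (up to 0.14), Egr2 without Veh replicate 1, Veh replicate 2, GSK replicate 1 or GSK replicate 3 (up to 0.14) and also not by DESeq2 (0.071), and Ifng without GSK replicate 3 (0.051, edgeR). The 3 genes that fell were Gadd45b, Cflar and Junb, the former pair known as survival genes (log2 fold changes -0.45, -0.16 and -0.17, adjusted p = 0.026, 0.039 and 0.034, edgeR). They are named here after their values had been seen.

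**Figure D5:**
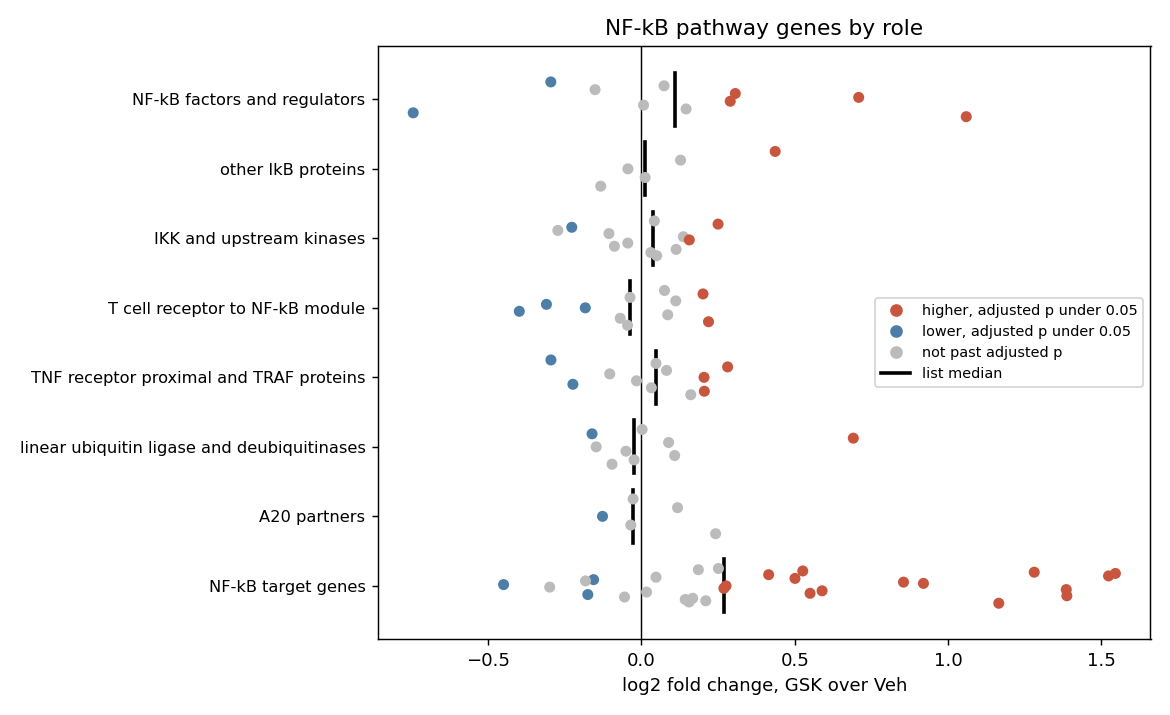
Log2 fold change of GSK over Veh (horizontal axis) for each tested gene (points) in the 10 genes studied and in 7 lists of other NF-kB pathway genes, with the list medians as black bars, red points for higher and blue for lower at an adjusted p under 0.05. The medians of the other lists lie between -0.036 and 0.27, highest in the target list, and Otulin stands apart at 0.69.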

How the data were processed

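RNA-seq of polyadenylated RNA was analysed in 6 samples, 3 treated with GSK and 3 with Veh, grouped by their titles. The authors built stranded libraries, trimmed reads with Trimmomatic, mapped them to GRCm38 with HISAT2 (version 2.1.0) and counted them with HTSeq (version 0.11.2). The deposited values are whole read counts per gene without normalization. The annotation release and the strand setting of the counting are not given in the sources used here, so reads of overlapping genes cannot be assigned with certainty. The submitters' notes also name Cufflinks (version 2.2.1) and DESeq2 (version 1.22.2).

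The comparison of GSK with Veh was fitted to these counts by the robust quasi-likelihood method of edgeR (version 4.0.16, R version 4.3.3) after filterByExpr and TMM scaling, with Benjamini-Hochberg adjustment over all 11698 tested genes. Thresholds were an adjusted p of 0.05 and, where stated, a fold change of 1.5. Standard errors come from the test statistic. The test was checked on simulated counts. Alternatives were DESeq2 (version 1.42.0), RLE size factors, 2 other filters, the replicate number as a block, and leaving out each sample. Replicates differed by more than sampling noise (chi-square per degree of freedom 4.08 to 9.42). Nothing says whether cultures with the same number came from one mouse, so p-values measure the spread between these samples. The total counts of 18288447 to 19846720 limit the precision of low genes such as Tnip3.

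The 10 genes and the lists were chosen with earlier results of these data known. Named from each list were all genes past both thresholds or, with fewer than 3, those with the smallest p up to 3. Gadd45b, Cflar, Junb and Tyrobp with its neighbours were named after their values were seen. Positions are from RefSeq (GRCm38) by Entrez identifier, exons from GENCODE M21.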

Additional observations from a re-analysis of the deposited data

How the results depend on the processing

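Each of the 10 genes was recomputed under 11 alternatives. Of these 110 values, 107 kept their direction and side of the adjusted p, as did 264 of the 297 values of 27 other pathway genes. Gadd45b, Cflar, Junb, Tyrobp, Hcst and Aplp1 were not recomputed. The counts of 3 genes past both thresholds and of 2 lower genes were the same under every alternative, and that of 4 higher genes became 3 without Veh replicate 3, through Nfkbid. The log2 fold change of Rela was -0.038 without Veh replicate 2 and -0.0024 without GSK replicate 3, within a range of -0.038 to 0.055 when any 1 sample was left out. Leaving out 1 sample gave 19 to 24 higher and 6 to 10 lower genes over all pathway lists, against 24 and 11 with all samples. This included 6 lower genes without Veh replicate 1 and 7 without each of Veh replicate 2, Veh replicate 3, GSK replicate 1 and GSK replicate 3. The cause was not tested. Without division by transcript length, 4 of the 10 genes kept their rank among the levels in Veh. With the replicate block, 4 of the 10 genes were higher, 2 lower and 3 past both thresholds, and 23 pathway genes were higher and 10 lower. The block ended the calls of Otud7b, Tax1bp1 and Egr2 (adjusted p = 0.075, 0.089 and 0.052, edgeR) and no other call among the genes recomputed. The replicate numbers were not taken as pairs, since samples that share a number deviated from their group means with correlations (over genes) of -0.052, -0.081 and 0.16. These correlations cover only samples with the same number and cannot show that no Veh and GSK cultures shared a mouse. Depth limits the precision of genes with few counts, such as Tnip3 (45 to 142 per sample) and Cd40lg (4 to 29).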

Other observations

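The deposited table annotates 95 genes to an NF-kappa B signaling pathway, of which 6 are among the 10 genes described. Of the 72 tested genes among the other 89, 20 rose (27.8%) and 11 fell (15.3%) (edgeR, same test as above), compared with 16.6% and 15.5% of all tested genes. Their median log2 fold change was 0.052. The annotation was read after the other lists had been written. It shares genes with them, such as Ccl4, so its count is not independent of theirs.

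No gene start other than their own is annotated within 25 kb of Nfkbiz, Tnip3 or Tnfaip3 in GENCODE M21. Nfkbid, in contrast, lies beside Hcst and Tyrobp, which encode adaptors of activating receptors. Tyrobp was counted 5, 11 and 2 times in the Veh samples and 17, 21 and 13 times in the GSK samples (log2 fold change 1.43, adjusted p = 0.047, edgeR), whereas Hcst, which lies between them, had a log2 fold change of -0.18 and an adjusted p of 0.30. Aplp1, which also starts within 25 kb of Nfkbid, had a log2 fold change of -0.032 (adjusted p = 0.92, edgeR).

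The genes with the profile most like that of Tnfaip3 over the 6 samples were Tha1, Plod2 and Plekhh3, with root mean square differences of 0.024, 0.041 and 0.067 in centred log2 CPM, among 10176 genes whose mean count reached 50. Those most like Nfkbiz were Jaml, Aen and Capg (0.065, 0.069 and 0.072), and those most like Tnip3 were Aqp3, Asap2 and Enc1 (0.16, 0.16 and 0.18). Such a likeness rests largely on the difference between the groups.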
